A study of Mus musculus with 7 samples.

Results

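Chromatin immunoprecipitation with sequencing (ChIP-seq) located SET and its tagged isoforms in mouse embryonic stem cells, and the peaks that were called on chromosome 13 are described here. All peaks listed for that chromosome were taken from 3 peak lists, 300 of 6198 peaks in all. They comprised 156 of 3446 peaks for SET, 76 of 1186 for SETα and 68 of 1566 for SETβ. A stretch from position 21000000 to 24000000 was then compared with the remainder of the chromosome, with positions on mouse genome build mm9 counted from 1. It held 53 of the 300 peaks, made up of 6 SET, 23 SETα and 24 SETβ peaks. This stretch was chosen because earlier work on the same lists had found many isoform peaks in it. Its peak number, density, spacing and sharing between the isoforms are therefore given as a description, with no test.

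The SET list came from R1 cells, a mouse embryonic stem cell line, precipitated with an antibody against SET itself. The other lists came from KH2 cells, a mouse embryonic stem cell line built for doxycycline-inducible transgenes. Those cells over-expressed HA-tagged SETα or HA-tagged SETβ after doxycycline at 1 μg/mL for 8 h, and an antibody against the HA tag was used. Each list came from 1 library, so no difference between lists has a replicate check, and cell line, antibody and induction all differ between SET and the isoforms. The 2 input and 2 linker histone H1 samples were not analysed here, and no anti-HA control from untagged cells was used. Background common to both KH2 libraries was therefore not tested.

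SET is a histone chaperone that binds core histones and linker histone H1, and it is also known as an inhibitor of histone acetylation and of the phosphatase PP2A. SETα and SETβ differ at the N terminus through alternative first exons. The chromosome 13 stretch is known as the site of the major cluster of replication-dependent histone genes, short intronless genes that are transcribed in S phase and whose mRNAs end in a stem-loop instead of a poly(A) tail. Many tRNA genes, which are read by RNA polymerase III, lie among them.

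The order of these genes was read from a RefSeq gene table on build GRCm38.p6. From n-TEctc11 (a tRNA gene) to H2ac1 (a histone H2A gene) it lists 314 genes, among them 104 of the 105 tRNA genes of the chromosome. All 56 genes counted by symbol as replication-dependent histone genes lie there too, H2ac5-ps, a pseudogene by its symbol, included. Histone genes with other symbols were not counted. First come 59 genes with 27 tRNA genes and 9 olfactory receptor genes. A first histone block follows, from H2bc13 to the tRNA gene n-TSgct5, with 24 histone genes and 32 tRNA genes among its 65 genes. Next are 87 genes from Vmn1r-ps92 to Vmn1r-ps135, of which 75 belong to the Vmn1r family of vomeronasal pheromone receptors and none is a histone or tRNA gene. They are followed by 59 genes from n-TIaat15 to n-TMcat9 with 45 tRNA genes and no histone gene. The second histone block runs from H4c8 to H2ac1, with 32 histone genes, H1f1 to H1f4 and H1f6 included, and no tRNA gene. Since the table and the peaks are on different builds, no peak was placed on a gene, and whether any peak lies at a histone or tRNA gene was not analysed here. No sequence of these peaks is shown for the same reason.

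Isoform peaks were crowded into the histone gene region, and SET peaks much less so. The SETα list held 7.67 peaks per Mb there and 0.468 per Mb on the rest of the chromosome, a ratio of 16.4 (exact binomial limits 9.59 to 27.2). For SETβ the density was 8 peaks per Mb against 0.388, a ratio of 20.6 (11.98 to 34.6). SET had 2 peaks per Mb against 1.32, a ratio of 1.51 (0.546 to 3.37). These limits cover the counting of peaks only and serve as no test, since peaks of 1 library are not replicates. The isoform ratios are the values for which the region was chosen. With 2.58% of the span of the chromosome, the region held 30.3% of the SETα peaks, 35.3% of the SETβ peaks and 3.85% of the SET peaks.

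**Figure D1:**
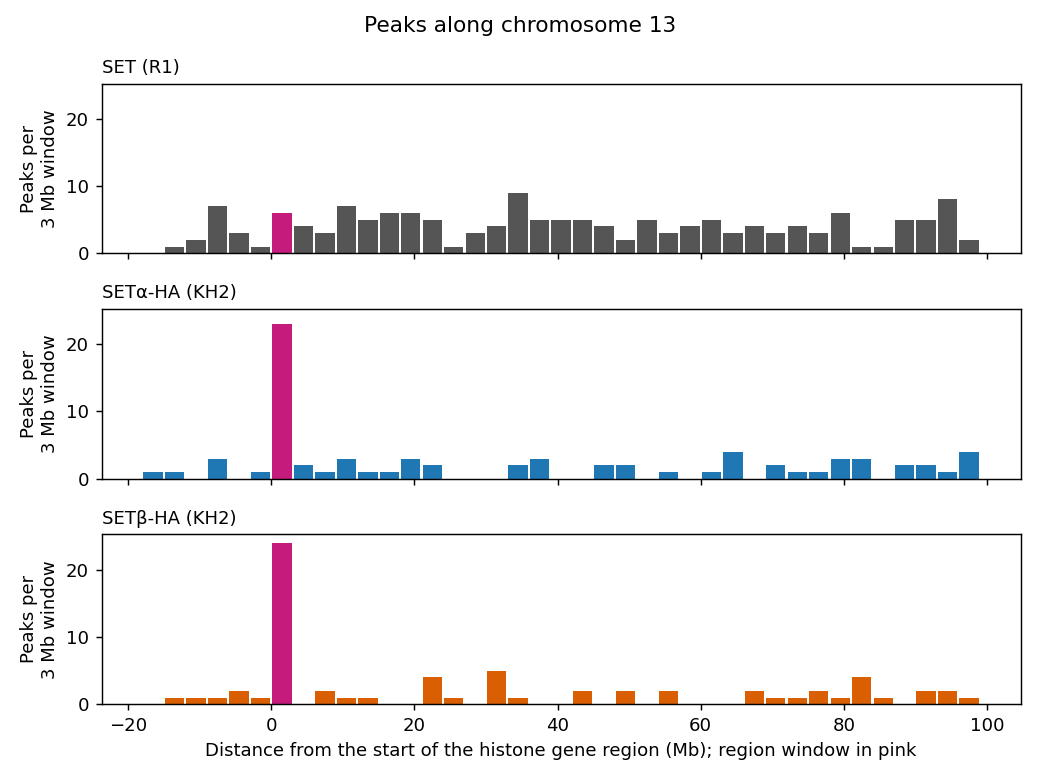
Number of peaks in consecutive windows of 3 Mb along chromosome 13 for the SET, SETα and SETβ lists, 1 library each, with the histone gene region as the pink bar at distance 0. The region holds 23 SETα and 24 SETβ peaks, while no other window of this grid holds more than 4 SETα or 5 SETβ peaks.

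No other window of the same length came near it in the isoform lists. Over the other 38 windows of 3 Mb, the median was 1 peak for each isoform, and 11 windows held no SETα peak and 13 no SETβ peak. For SET the median was 4, the highest 9, and 1 window was empty. When windows were allowed to start at any peak, the densest SETα window outside the region held 5 peaks, between 83024760 and 85375298. The densest SETβ window held 6, between 51685213 and 54311125. For SET that window held 10 peaks, from 51926557 to 54736522, more than the 6 of the histone gene region.

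For the isoforms, the place of chromosome 13 among the 19 autosomes depended on whether the region was counted. With 0.654 SETα peaks per Mb it was the fourth densest, and without the region, at 0.468, it came to place 7. For SETβ it fell from place 9 at 0.585 peaks per Mb to place 19, the lowest, at 0.388. For SET it held place 12 both with the region (1.34 per Mb) and without it (1.32). The other autosomes kept their own dense stretches here, such as 22 SETα and 22 SETβ peaks at 2.9 to 3.1 Mb of chromosome 9. Chromosome 13 could therefore only keep or lose its place, and the lower places do not rank the rest of it fairly. Of all peaks in the genome-wide lists, the region held 1.94% for SETα, 1.53% for SETβ and 0.174% for SET.

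Beyond the edges of the region, the nearest isoform peaks were at the following places. The last SETα peak before it, at 20398926 to 20399130 (the authors' score 53.3), lay 601 kb outside the lower edge, and the next one after it, at 24547290 to 24547552 (54.5), lay 547 kb beyond the upper edge. For SETβ the nearest outside peaks, at 18425117 to 18425265 (74.3) and 27770599 to 27770832 (57.9), lay 2575 kb and 3771 kb away. The first isoform peaks inside began at 21325977 for SETα (56.4) and 21321047 for SETβ (52.6). The last ended at 23622346 for SETα (97.8) and 23622511 for SETβ (71.1). SET peaks stood 1646 kb before and 1025 kb after the region. These distances run to the edges of the region, so the gaps to its outermost peaks were longer. For comparison, the median gap between neighbouring peaks on the rest of the chromosome was 1424 kb for SETα (interquartile range 574 to 2892 kb). For SETβ it was 1687 kb (515 to 3162 kb), and the upper SETβ distance of 3771 kb lay above that range.

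Neighbouring isoform peaks in the region were far closer together than elsewhere on the chromosome. The median gap between neighbouring SETα peaks was 14.7 kb in the region (interquartile range 4.78 to 50.4 kb, 22 gaps) and 1424 kb on the rest (574 to 2892 kb, 51 gaps). For SETβ it was 10.96 kb (5.39 to 26.5 kb, 23 gaps) and 1687 kb (515 to 3162 kb, 42 gaps). Gaps under 10 kb numbered 9 for SETα and 11 for SETβ in the region, against 0 and 2 on the rest. SET peaks were 228 kb apart at the median in the region (5 gaps) and 441 kb elsewhere (148 gaps).

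When peaks were divided wherever a gap exceeded 200 kb, the 47 isoform peaks of the region fell into 4 groups, 3 of them crowded and 1 a lone SETα peak. On the rest of the chromosome the 2 isoform lists together formed 73 groups, of which 56 were single peaks and the largest had 4. The largest group in the region had 24 peaks. Within single lists, the largest group outside held 2 SETα, 3 SETβ or 4 SET peaks.

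**Figure D2:**
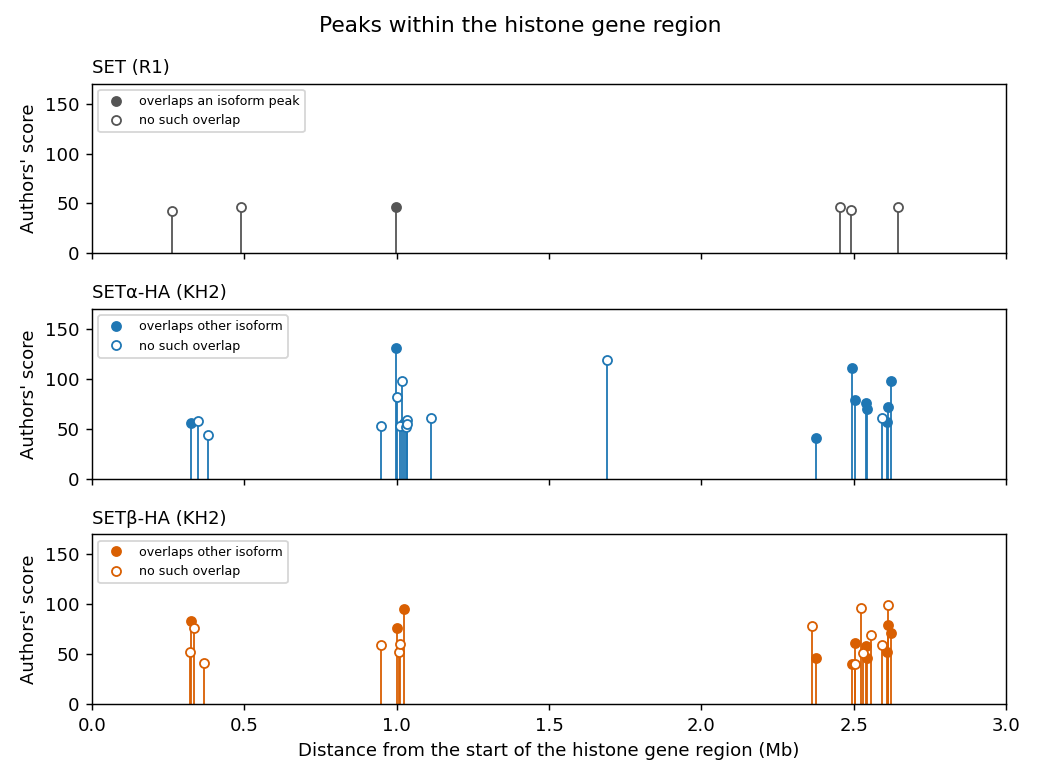
Peaks of the 3 lists within the histone gene region, plotted by distance from its start (Mb) with the authors' score as height; filled points overlap a peak of the other isoform (for SET, of either isoform). Isoform peaks stand in 3 crowded groups and 1 lone SETα peak of score 119, and the 6 SET peaks all score between 42.0 and 46.9.

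The first group spanned 59.3 kb, from 21321047 to 21380343, with 3 SETα and 4 SETβ peaks at 6 distinct places. Both isoforms were called together at 1 of these places, where SETα at 21325977 to 21326216 scored 56.4 and SETβ at 21325798 to 21326054 scored 83.6. The 2 other SETα peaks began at 21345973 (57.7) and 21380118 (43.8). SETβ alone was listed at 21321047 (52.6), 21332746 (76.0) and 21367654 (41.6). A score of 60 was reached by 0 SETα and 2 SETβ peaks of this group, on scales that may differ between the libraries. A stretch of 567 kb without isoform peaks followed.

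The second group ran over 165 kb, from 21947689 to 22113149, and had more SETα peaks (10) than SETβ peaks (5), at 13 distinct places. It contained the highest-scoring SETα peak of the region, at 21998831 to 21999340, with a score of 131, a width of 510 bp and rank 69 among all 1186 SETα peaks. SETβ was called inside that peak, at 21998959 to 21999299 (75.9). A further SETα peak lay just beyond, at 21999652 to 21999931 (82.0), without a SETβ call. The other place of overlap was at 22022880 to 22023114, where SETα scored 56.2 and SETβ, at 22022879 to 22023176, scored 95.9. At the lower end of the group a SETα peak at 21947689 to 21947965 (53.4) and a SETβ peak at 21948016 to 21948209 (59.0) did not overlap and were 50 bp apart.

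Most other members of the second group were SETα peaks with no SETβ call. They began at 22011986 (53.1), 22016732 (97.5), 22028827 (51.6), 22032109 (59), 22032669 (54.9) and 22112891 (60.9). SETβ peaks without SETα began at 22006523 (51.9) and 22011008 (60.3). The last of these ended under 1 kb before the SETα peak at 22011986. A missing peak here means only that none was called, at an unknown depth, and no difference in binding between the isoforms was measured at these places.

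The lone SETα peak, at 22690460 to 22690570, stood 577 kb after the second group and 672 kb before the next. It differed in width from the other isoform peaks of the region. It was 111 bp wide, the narrowest of the 47, and its score of 119 (rank 89 of the list) was, among the SETα peaks of the region, second to that of the peak at 21998831. No SETβ peak lay within 667 kb of it.

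The fourth group was the longest, 260 kb from 23362140 to 23622511, with 9 SETα and 15 SETβ peaks at 16 distinct places. Here 8 of the 9 SETα peaks overlapped a SETβ peak, against 1 of 3 in the first group and 2 of 10 in the second. The groups differed less from the side of SETβ, with 8 of 15 peaks overlapping SETα here, 1 of 4 in the first and 2 of 5 in the second. Over the whole lists the shares were 15% for SETα and 11.3% for SETβ. From low to high position, the shared SETα peaks began at 23377217 (score 41.4), 23492673 (111), 23504405 (79.0), 23538479 (76.1), 23542405 (70.3), 23609442 (56.5), 23613567 (71.5) and 23622089 (97.8). Their SETβ partners scored 46.6, 40.7, 61.4, 57.8, 45.9, 52.6, 79.0 and 71.1 in the same order. The SETα peak left over, at 23591845 to 23592008 (61.3), had a SETβ peak 717 bp further on, at 23592726 to 23592945 (59.0).

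SETβ without SETα was listed at 6 more places of the fourth group. These peaks began at 23362140 (78.6), 23503804 (40), 23523172 (96.3), 23529805 (51.1), 23555319 (69.7) and 23610754 (99.1). The last was the highest-scoring SETβ peak of the region, at rank 257 of 1566. The one at 23503804 was at the lowest score found in the whole SETβ list.

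**Figure D3:**
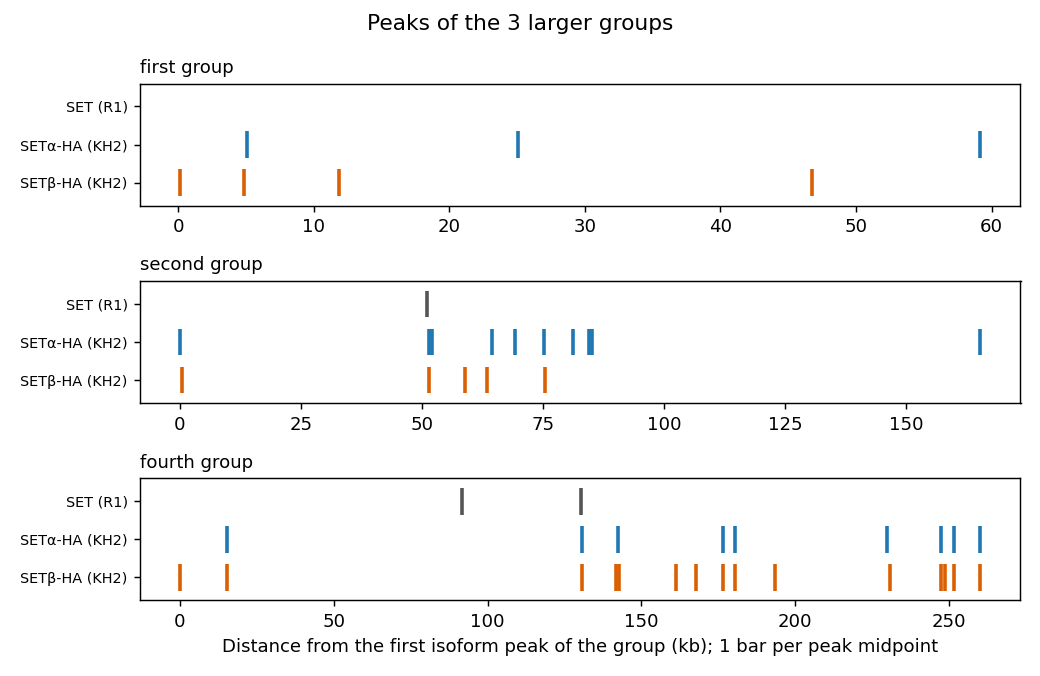
Midpoints of SET, SETα and SETβ peaks in the 3 crowded groups, by distance (kb) from the first isoform peak of each group; each bar is 1 peak. SETα and SETβ peaks overlap by at least 1 bp at 8 places in the fourth group, 2 in the second and 1 in the first, with midpoints 30.5 to 178 bp apart. Peaks that lie close without overlap can look alike at this scale.

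Counted over all scores, a larger share of isoform peaks overlapped the other isoform in the region than on the rest of the chromosome, and this order depended on the score filter. Of the 23 SETα peaks, 11 (47.8%, 95% Wilson interval 29.2 to 67.0%) shared at least 1 bp with a SETβ peak, and over the whole SETα list 15% did. On the rest of chromosome 13 the number was 8 of 53 (15.1%, 7.85 to 27.1%). Of the 24 SETβ peaks, 11 (45.8%, 27.9 to 64.9%) overlapped SETα, against 11.3% of the whole SETβ list and 8 of 44 (18.2%, 9.51 to 32.0%) on the rest of the chromosome. With only peaks scoring at least 60 kept in every list, the shares were 33.3% in the region and 28.6% on the rest for SETα, and for SETβ the order turned, with 33.3% and 42.9%. Peaks of 1 library are not replicates, so no test was made.

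Divided by score, the larger share in the region than on the rest lay mainly in low-scoring peaks for SETβ. For SETα it was seen in each class, but at 100 or more it rested on only 3 peaks of the region. Of SETα peaks under a score of 60, 4 of 11 in the region (36.4%, Wilson interval 15.2 to 64.6%) overlapped SETβ, against 1 of 32 on the rest of the chromosome (3.13%, 0.554 to 15.7%) and 16 of 642 on other chromosomes (2.49%). For SETβ these numbers were 5 of 12 (41.7%, 19.3 to 68.0%), 1 of 30 (3.33%, 0.591 to 16.7%) and 23 of 974 (2.36%). Between 60 and 100, 5 of 9 SETα peaks in the region (55.6%), 5 of 15 on the rest (33.3%) and 57 of 319 on other chromosomes (17.9%) were shared. In that class 6 of 12 SETβ peaks in the region and 3 of 6 on the rest were shared, 50% in each, and 37 of 280 on other chromosomes (13.2%). At 100 or more, 2 of 3 SETα peaks in the region and 2 of 6 on the rest were shared, with 86 of 149 on other chromosomes (57.7%), and the region held no SETβ peak of that class. The score classes were chosen after the values were seen.

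Isoform peaks of the region without overlap mostly had a peak of the other isoform near. The 12 unshared SETα peaks lay at a median of 7.29 kb from the nearest SETβ peak, 4 of them within 1 kb and 8 within 10 kb. The 13 unshared SETβ peaks lay at a median of 5.15 kb from the nearest SETα peak, 4 within 1 kb and 9 within 10 kb, and none was further than 15.0 kb. On the rest of the chromosome the medians were 1249 kb for 45 SETα peaks and 816 kb for 36 SETβ peaks, and 1 peak in all lay within 10 kb. These distances follow from the density for which the region was chosen.

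Width and score did not enter the choice of the region. Their medians differed between shared peaks of the region and those elsewhere, while the ranges of both measures overlapped. In the region, the 11 shared SETα peaks had a median width of 274 bp (178 to 510 bp) and a median score of 71.5 (41.4 to 131). The 8 shared SETα peaks on the rest of the chromosome had a median width of 139.5 bp (110 to 185 bp) and a median score of 86.1 (43 to 220). For SETβ the medians were 249 bp (158 to 397 bp) and 61.4 (40.7 to 95.9) in the region. On the rest they were 175 bp (115 to 251 bp) and 95.6 (58.55 to 312). On other chromosomes the medians of shared peaks were 143 bp and 105 for SETα and 174.5 bp and 123 for SETβ. Widths there reached 1138 bp for SETα and 1204 bp for SETβ. No shared peak of the region was under 150 bp wide, while 6 of the 8 shared SETα peaks and 2 of the 8 shared SETβ peaks on the rest were.

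Partners in the region were also less exactly aligned. Midpoints of overlapping SETα and SETβ peaks lay a median of 86 bp apart (interquartile range 50.3 to 125.5 bp, 11 pairs) in the region, with a range from 30.5 to 178 bp. On the rest of the chromosome the median was 14.3 bp (5 to 35 bp, 8 pairs), and on other chromosomes 11 bp (interquartile range 3 to 32.5 bp, 159 pairs). Midpoints were over 50 bp apart in 8 of 11 pairs of the region, 0 of 8 on the rest and 25 of 159 (15.7%) on other chromosomes. Both peaks exceeded 200 bp in 9 of 11 pairs, 0 of 8 and 35 of 159 (22.0%) in the same order. Wider peaks leave more room for midpoints to differ, and the 2 measures were not separated here.

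The widest offset in the region was 178 bp, between SETα at 23377217 to 23377490 and SETβ at 23377421 to 23377642, which shared 70 bp. The pair at 21325977 had an offset of 170.5 bp and shared 78 bp, and the pair at 23492673 one of 155.5 bp and shared 171 bp. The closest pair, at 22022880, was offset by 30.5 bp, and its SETα peak lay wholly within the SETβ peak. The SETβ midpoint was at the higher position in 9 of the 11 pairs of the region, 5 of the 8 on the rest and 66 of 159 on other chromosomes. The SETα score was the higher in 7 of 11, 2 of 8 and 68 of 159 pairs, though scores of different libraries are not on a common scale.

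**Figure D4:**
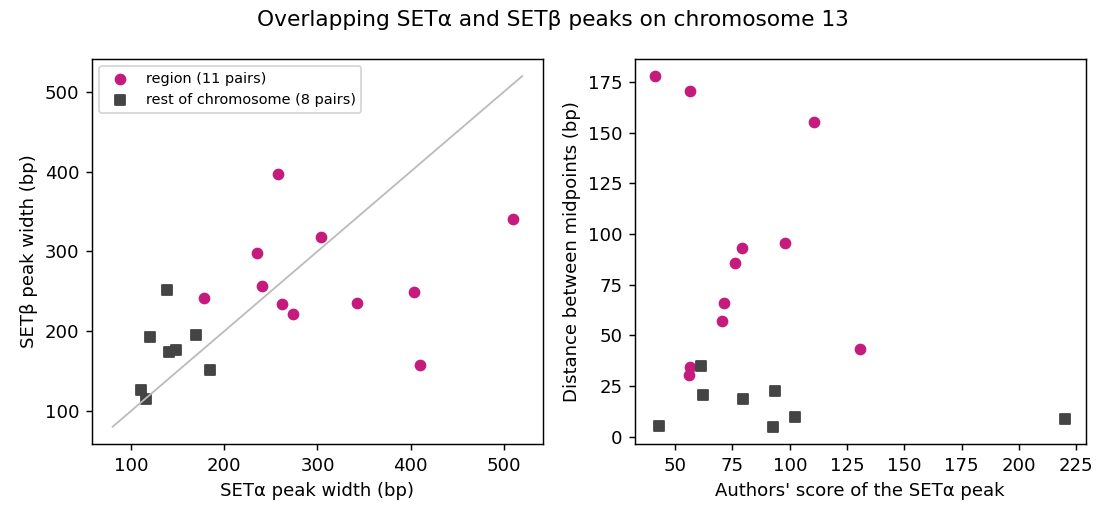
Overlapping SETα and SETβ peaks on chromosome 13, 1 point per pair, in the histone gene region (11 pairs) and on the rest of the chromosome (8 pairs); left, widths of the partners (bp) with the line of equal width, right, distance between midpoints (bp) against the authors' score of the SETα peak. Pairs on the rest lie at small widths and at most 35 bp apart. Those of the region lie mostly at larger widths, with midpoints 30.5 to 178 bp apart.

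Taken over all peaks, shared or not, median widths were higher in the region than on the rest of the chromosome. Median widths were 259 bp (interquartile range 230.5 to 280.5 bp) against 223 bp (169 to 263 bp) for SETα, and 300 bp (239.5 to 319.5 bp) against 247 bp (182.75 to 312.5 bp) for SETβ. These quartile ranges overlap. Among peaks of like score, the size and direction of the gap depended on the score class, and the classes were chosen after the values were seen. Between scores of 60 and 100, the median SETα width was 278 bp in the region (9 peaks), 178 bp on the rest (15) and 162 bp on other chromosomes (319). For SETβ it was 304.5 bp (12 peaks), 161.5 bp (6) and 175 bp (280). Under a score of 60 the order turned. SETα medians were then 240 bp in the region (11 peaks) and 252.5 bp on the rest (32). SETβ medians were 274 bp (12 peaks) and 307.5 bp (30). Peaks under 150 bp made up 1 of 23 SETα and 0 of 24 SETβ peaks in the region, and 13 of 53 and 7 of 44 on the rest.

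Scores in the region were mostly moderate. The median was 60.9 in the region and 55.5 on the rest for SETα, and 59.7 and 55.1 for SETβ. A score of at least 60 was reached by 12 of 23 SETα peaks (52.2%; 42.2% of the whole list and 39.6% of the rest of the chromosome) and by 12 of 24 SETβ peaks (50%; 35.1% of the whole list and 31.8% of the rest). A score of at least 100 was reached by 3 SETα peaks of the region (13.04%; 13.3% of the whole list) and 6 on the rest (11.3%). For SETβ it was reached by 0 peaks of the region (16.1% of the whole list) and 8 on the rest (18.2%). The best SETβ peak of the region ranked 257, below the best on the rest of the chromosome, at rank 18, and for SETα these ranks were 69 and 22.

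Endogenous SET was called at 6 places in the region, all with low scores. They lay at 21262327 to 21262542 (42.0), 21490067 to 21490291 (46.1), 21998616 to 21998837 (46.4), 23453621 to 23453842 (46.4), 23492415 to 23492593 (43.3) and 23644842 to 23645058 (46.9). The best of them ranked 2111 of 3446, and none reached 60, against 17 of 150 on the rest of the chromosome (11.3%) and 14.1% of the whole SET list. A score of 100 was reached by 0 of the 6 and by 1 of the 150, against 2.38% of the whole list. Their median width of 219.5 bp compared with 200 bp on the rest.

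Of the 6 SET peaks, 2 adjoined isoform peaks of the region at their flanks. The SET peak at 21998616 shared 7 bp with the strongest SETα peak, its midpoint lying 359 bp lower, and ended 121 bp before the SETβ peak. The one at 23492415 ended 1 bp before a SETβ peak and 79 bp before a SETα peak. The other 4 were 22.3 to 110 kb from the nearest isoform peak. So 1 of 6 SET peaks overlapped SETα (16.7%, Wilson interval 3.01 to 56.4%; 3.31% of the whole SET list) and 0 of 6 overlapped SETβ (4.27% of the whole list), for which the interval reaches 39.0%. Seen from the isoforms, 1 of 23 SETα peaks (4.35%; 9.61% of the whole list) and 0 of 24 SETβ peaks (up to 13.8% by the Wilson interval; 9.39% of the whole list) overlapped SET. SET overlapped 3 of 53 SETα peaks (5.66%) and 4 of 44 SETβ peaks (9.09%) on the rest of the chromosome. With so few peaks, the intervals of the region and the rest overlap for both isoforms.

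Places where all 3 lists overlapped were found only on the rest of the chromosome, since the SET peak that touched SETα in the region did not overlap SETβ. There were 3, and in each the SET peak lay over the isoform peaks and not beside them. At 44964927 to 44965067 SETα scored 43, SETβ 68.0 and SET 57.7, and all 3 peaks had 93 bp in common. The place at 92813885 to 92814022 scored 93.5, 171 and 191 in that order, with 138 bp in common, and it was the highest SET peak of the chromosome (rank 21). At 113368377 to 113368545 the scores were 102, 58.6 and 78.5, with 133 bp in common. The SET and SETα midpoints differed by 7, 21 and 8 bp.

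The highest isoform peaks of the chromosome lay outside the histone gene region too. For both isoforms the first was at 111393254 to 111393363, with a SETα score of 220 (rank 22) and a SETβ score of 312 (rank 18), and it overlapped no SET peak. The next SETα peaks were at 31275356 to 31275455 (146), 38960480 to 38960593 (128), 109297451 to 109297567 (128) and 117877123 to 117877219 (107), all without SETβ or SET. These 4 were 97 to 117 bp wide, like the lone SETα peak of the region at 111 bp. The next SETβ peaks were at 69863579 to 69863729 (215, shared with SETα), 116532422 to 116532574 (180, shared with SET), 92813806 to 92814056 (171, in all 3 lists) and 42449091 to 42449220 (124, in no other list).

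After the place at 92813884, the next 4 SET peaks of the chromosome by score were called in no other list. Of these, 3 were short and lay at 54137829 to 54137912, 65687209 to 65687290 and 94685928 to 94686011, each with a score of 97.9 and 82 to 84 bp wide. The other, at 79049029 to 79049331 (86.4), was 303 bp wide. Of the 150 SET peaks on the rest of the chromosome, 146 overlapped neither isoform list, and 5 of the 6 in the region did not, against 94.7% of the whole SET list. Peaks in no other list made up 12 of 23 SETα peaks in the region and 45 of 53 on the rest, against 82% of the whole list. For SETβ these numbers were 13 of 24 and 35 of 44, against 84.2%.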

How the data were processed

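Per the submitters' processing notes, Bowtie 0.12.7 (an aligner) and MACS 1.4 (a peak caller) were used with build mm9. For parameters and the role of the input libraries, the notes give nothing. Each library has 1 deposited list with chromosome, start, end, name and the authors' peak score, whose scale is not stated. Such a score depends on depth, which is unknown, so ranks and medians were read within a list. Where the same cutoff was applied to every list, or scores of both isoforms were set side by side, the scales may differ. The doxycycline text numbers samples in a way that does not match their order, so treatment was taken only for the libraries whose own labels carry it.

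Peaks overlapped when they shared at least 1 bp. The chromosome was taken as the stretch between its outermost peaks of any list. Intervals on shares are 95% Wilson intervals and limits on density ratios are exact binomial limits, for counting error only. Overlap and grouping code was tested on simulated intervals. Named were all peaks of the region, the 5 highest of each list on the rest of the chromosome, places in all 3 lists and the densest other windows. The region and these rules were chosen with earlier results of these data known. With 1 library per group, no test was made. Analyses ran in Python 3.11.15 with scipy 1.17.1, pandas 2.3.3 and numpy 2.4.6, and plots were drawn with matplotlib 3.10.9.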

Additional observations from a re-analysis of the deposited data

How the results depend on the processing

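For 25 results, 71 alternative values were computed, and 49 stayed within the counting interval, or within 1.5 times for a count of peaks or groups. Widening the region by 0.5 Mb on each side, using midpoints, leaving out the first 1 Mb of the chromosome, and splitting at 100 or 500 kb were among these. Some of these settings could not change a count. No peak crossed an edge, the nearest outside peak lay 547 kb away, and the groups were at least 567 kb apart. Peak counts on widening or by midpoints, and the split at 500 kb, were thus fixed in advance. Wide intervals also let large shifts count as unchanged. The share of SET region peaks overlapping SETβ went from 0% to 33.3% when gaps up to 500 bp were allowed. At a score of at least 60 the region held 12 SETα, 12 SETβ and 0 SET peaks, with a SET density ratio of 0. At 100 it held 3 SETα, 0 SETβ and 0 SET peaks, with a ratio of 0 for SETβ and for SET. At 60 in every list, the share of SETα peaks overlapping SETβ was 33.3% in the region and 28.6% on the rest of the chromosome, and that of SETβ peaks overlapping SETα was 33.3% and 42.9%, the opposite order to that over all scores. The share of SET peaks on the rest was then 11.8% for SETα and 11.8% for SETβ, and that of SETα region peaks overlapping SET was 0%. When the overlap had to cover 50% of the shorter peak, SET and SETα shared no place in the region (0% of either list). Median widths on the rest fell at 60 or more to 141 bp for SETα, 150 bp for SETβ and 113 bp for SET. Between 60 and 100, an alternative chosen after seeing the data, they were 178, 161.5 and 104.5 bp. No SET peak of the region reached 60, so its shares and width have no value there. No paired analysis was possible because each group had 1 library, and no library could be left out. Depth is unknown, so absence of a peak is absence of a call.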

Other observations

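Other stretches with many isoform peaks differed among themselves in how the isoforms lay, and these stretches were chosen after their values were seen. At the start of chromosome 9, from 2.9 to 3.1 Mb, 18 of 22 SETα peaks (81.8%) and 17 of 22 SETβ peaks (77.3%) overlapped the other isoform. The midpoints of the 18 pairs lay a median of 13.8 bp apart, against 86 bp for the 11 pairs of the histone gene region. Their range, 0.5 to 197.5 bp, took in that of the region, 30.5 to 178 bp, and both peaks exceeded 200 bp in 5 of the 18 pairs. On chromosome 8, from 19 to 20 Mb, 3 of 11 SETα and 3 of 10 SETβ peaks were shared, and the midpoints of those 3 pairs were 9 to 304 bp apart, with a median of 107.5 bp. Both peaks exceeded 200 bp in all 3 of those pairs, as in 9 of 11 pairs of the histone gene region.

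Wide, offset pairs were also present elsewhere. Pairs with both peaks over 200 bp and midpoints over 50 bp apart numbered 7 of 11 in the region, 0 of 8 on the rest of chromosome 13 and 12 of 159 on other chromosomes. These 12 were spread over chromosomes 8, 9 and 17 (3 each) and 1, 2 and 15 (1 each). The one on chromosome 1 lay in a stretch from 172 to 175 Mb with 8 SETα and 10 SETβ peaks, 4 of each shared, where 3 of the 4 pairs had both peaks over 200 bp. SET had 10 peaks in that stretch, and 2 of the SETα and 3 of the SETβ peaks there overlapped SET.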
